A study of Mus musculus with 22 samples.

Results

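The genes described here encode the enzymes that attach glucuronic acid (UGT), glutathione (GST) or sulphate (SULT) to drugs, hormones, bile pigments and other small molecules. Members were all array probes whose gene name begins with Ugt1 to Ugt3 followed by a or b, with Gst and a class letter (a, k, m, o, p, t or z) and a digit, or with Sult and a digit. This took 45 genes (14 UGT, 20 GST, 11 SULT) read by 56 of the 41174 probes that are not controls. Of these, 41 genes (14 UGT, 19 GST, 8 SULT) exceeded background clearly on all arrays of 1 group or more and are described. Gstt4, Sult2b1, Sult3a1 and Sult6b1 were not.

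Liver RNA of 22 C57BL/6 mice was measured, 1 array each, in 6 groups. The newborns were 4 Tcf7l2+/+ (wild type) and 4 Tcf7l2 knockout pups, all injected subcutaneously with 50 ul of a 10% glucose solution and killed at 5 h. The adults were Tcf7l2loxp/loxp mice without (control) or with (knockout) SA-CreERT2, a Cre recombinase that tamoxifen activates. Controls and knockouts alike had tamoxifen at 3 weeks of age and, after 1 to 2 months, went 24 h without food (4 controls, 4 knockouts) or with it (3 controls, 3 knockouts). Tcf7l2 encodes a transcription factor of Wnt signalling, and the study compared the genotypes within these treatments. Each value is the log2 of liver signal over that of a shared reference RNA, so a value of 1 is a doubling over the reference. Ratios are compared between groups for 1 probe, never between probes.

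UGT enzymes sit in the endoplasmic reticulum and use UDP-glucuronic acid, cytosolic GST enzymes use glutathione, and SULT enzymes use the sulphate donor PAPS. The products are more soluble in water and leave the hepatocyte through transporters into bile or blood. Nuclear receptors such as CAR and PXR and the stress factor NRF2 are known to control many of these genes, and Wnt signalling is known to set the zone of the liver lobule in which hepatocyte enzymes are made.

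The knockout label could be checked in part only. The brightest Tcf7l2 probe read lower in all 4 newborn knockouts (-1.85 to -1.57) than in all 4 wild types (-1.28 to -0.32). In adults it read -0.64 to 0.09 in controls and -0.35 to 0.63 in knockouts, and whether that probe lies in the removed stretch is not known, so adult groups are named by their labels alone. The share of liver spots well above background was 50.2% to 64.4% on newborn and fasted arrays but 22.8% to 31.2% on fed arrays. Newborn wild types lay on slide 1 and newborn knockouts on slide 2, so slide and genotype cannot be told apart there. Fasted mice lay on slides 3 and 4 and fed mice on slides 5 and 6, each with both genotypes. Replicates are separate mice by their labels. The number of arrays limits precision. In bulk liver, fewer cells of a type and less RNA per cell cannot be told apart.

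The largest differences among these genes were between newborn and adult liver. Of the 41 genes, 32 were lower in newborn wild types than in adult controls (mean of the fasted and fed means) and 3 were higher, at a Benjamini-Hochberg adjusted p below 0.05 in limma. Over all 18445 genes tested, 59.2% passed, with 27.3% lower and 32% higher, and 36.1% had ranges that did not overlap. The median difference was -2.01 over the 41 genes and 0.03 over all genes. Of the 35 that passed, 32 (29 lower, 3 higher) also passed the same way in each of 3 other measures, namely the scanner software's processed ratios, median centring in place of loess, and the liver channel alone. Among all genes 36.8% passed by this stricter count, 12.1% lower and 24.8% higher. Age, glucose, tamoxifen and slide differ together between these groups and cannot be told apart. The rule that kept genes also tilts this count. Ugt1a9 and Gsta2 were kept through adult groups only, where they are high, as was the brightest Ugt2a1 probe. Sult3a1, above background on some newborn arrays and on no adult array, was not kept.

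Among the UGT genes, 13 of 14 were lower in newborns. Ugt2a3 read 0.69, 3.04, 2.21 and 3.4 in newborn wild types. Fasted controls gave 9.3, 9.54, 9.55 and 9.57, and fed controls 9.2, 9.6 and 9.61. The newborn values spread widely with array 1 lowest, and none came near an adult value, a difference of -7.15 ± 0.31 (SE, adjusted p = 6.69e-14) and 142-fold. Ugt2b1, of the 2b family whose enzymes act on steroids and bile acids among others, averaged 1.93 ± 0.82 (SD, n = 4) in newborns against 8.59 ± 0.21 (n = 4) in fasted and 7.31 ± 0.49 (n = 3) in fed controls. That is a difference of -6.02 ± 0.3 (adjusted p = 3.93e-13), 65-fold. Ugt2a1 was lower by 5.59 on the log2 scale and Ugt2b5, an abundant adult 2b gene, by 3.71. Ugt1a9 was above background on no newborn array and on all 7 adult control arrays. Its ratio averaged 0.09 in newborn wild types, 5.07 in fasted and 3.07 in fed controls (adjusted p = 3.24e-09), and no fold is given because the newborn probe was not well above background.

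The gene of the bilirubin-conjugating enzyme, Ugt1a1, was the UGT that did not pass. It read 3.71, 4.34, 4.55 and 4.25 in newborn wild types, 4.53, 4.27, 3.5 and 4.63 in fasted controls and 2.99, 3.63 and 3.24 in fed controls. The newborn values lay among the fasted ones and above the fed ones (difference 0.45 ± 0.21, adjusted p = 0.0713). Transcripts of the Ugt1a locus are known to share their last exons, so a probe there reads several of them. Of the Ugt1a probes, that named Ugt1a6b lies furthest downstream (90115472 to 90115531 on the plus strand), past that of Ugt1a1 (90108880 to 90108939). Its values may thus not be those of Ugt1a6b alone, and which exon each probe lies in was not determined here. The reference channel also differed between newborn and adult arrays for 26 of the 35 members that passed. For Ugt2b36 the ratio was lower in newborns by 1.79, while the liver channel alone was lower by 5.5 and the reference channel by 4.18. The labels give the same reference RNA for all arrays, but whether it was of 1 lot is not known, and the cause of its differences was not tested.

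Of the 19 GST genes, 16 were lower and 3 higher in newborns. Gsta1 and Gsta2, of the alpha class whose enzymes make up much of adult liver GST, differed most. Gsta1 read -0.95, -1.47, -1.04 and -1.26 in newborn wild types, 3.27, 3.33, 2.59 and 1.77 in fasted controls and 4.31, 3.91 and 4.39 in fed controls. The groups did not overlap, and the difference was -4.65 ± 0.29 (adjusted p = 1.43e-11), 25.1-fold. Gsta2 was lower by 4.98, a value set in part by background since the probe was well above it on 2 of 4 newborn wild-type arrays only. Gsta3 was lower by 2.38 and Gsta4 by 1.92. In the theta class, known for small halogenated substrates, Gstt1, Gstt2 and Gstt3 were lower by 1.54, 1.44 and 2.01. Gstp1, of the pi class, was lower by 2.77 and Gstz1, which encodes maleylacetoacetate isomerase of tyrosine breakdown, by 1.48.

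The mu class split. Gstm1, Gstm2, Gstm3, Gstm4, Gstm6 and Gstm7 were lower in newborns by 0.71 to 3.04, and Gstm5 was higher. Gstm5 read 1.86, 1.6, 1.4 and 1.86 in newborn wild types against -1, -0.68 and -0.78 in 3 fasted controls with a usable spot and -0.22, -0.01 and -0.38 in fed controls. All newborn arrays lay above all adult arrays (2.19 ± 0.13, adjusted p = 2.75e-11, 4.57-fold). The omega genes Gsto1 and Gsto2 were also higher in newborns, by 0.52 and 0.41. Gsto2 rested on thin ground, with an adjusted p of 0.0491, and it lost its call in 20 of 33 alternative analyses.

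Against the mean of the fasted and fed means, a smaller share of sulphotransferases passed by age, with 3 of 8 lower and none higher. Sult1b1, which sulphates thyroid hormone, read 2.57, 3.23, 3.03 and 3.41 in newborn wild types against 7.27, 7.79, 7.08 and 7.6 in fasted and 6.41, 6.84 and 6.95 in fed controls. This was a clear gap of -4.02 ± 0.17 (adjusted p = 4.42e-14). Sult5a1 was lower by 3.69 and Sult1c2 by 2.82. Sult1a1, the phenol sulphotransferase, read 8.03 ± 0.2 in newborns (SD, n = 4), 7.62 ± 0.2 fasted (n = 4) and 8.65 ± 0.12 fed (n = 3), a difference of -0.1 ± 0.12 (adjusted p = 0.491). Sult1d1, Sult1c1 and Sult1e1 also did not pass, with differences of 0.21, -0.05 and 0.14. For Sult1d1 that small difference comes from averaging adult groups on opposite sides. Its newborn wild types read 7.14 to 7.51, below all fasted controls (7.77 to 8.51) and above all fed controls (5.47 to 6.33). Newborn livers also carried more blood-cell RNA: all 5 tested neutrophil markers and 3 of 4 erythroid markers were higher in newborn wild types. The summed neutrophil marker ratio was 8.5 to 9.4 in newborns and 3.53 to 5.35 in adult controls on the log2 scale. The summed ratio of 5 hepatocyte markers was 8 to 8.21 in newborns, above the 7.59 to 7.98 of fasted controls and below the 8.7 to 9.19 of fed controls. The part of blood cells in the age differences was not tested.

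**Figure D1:**
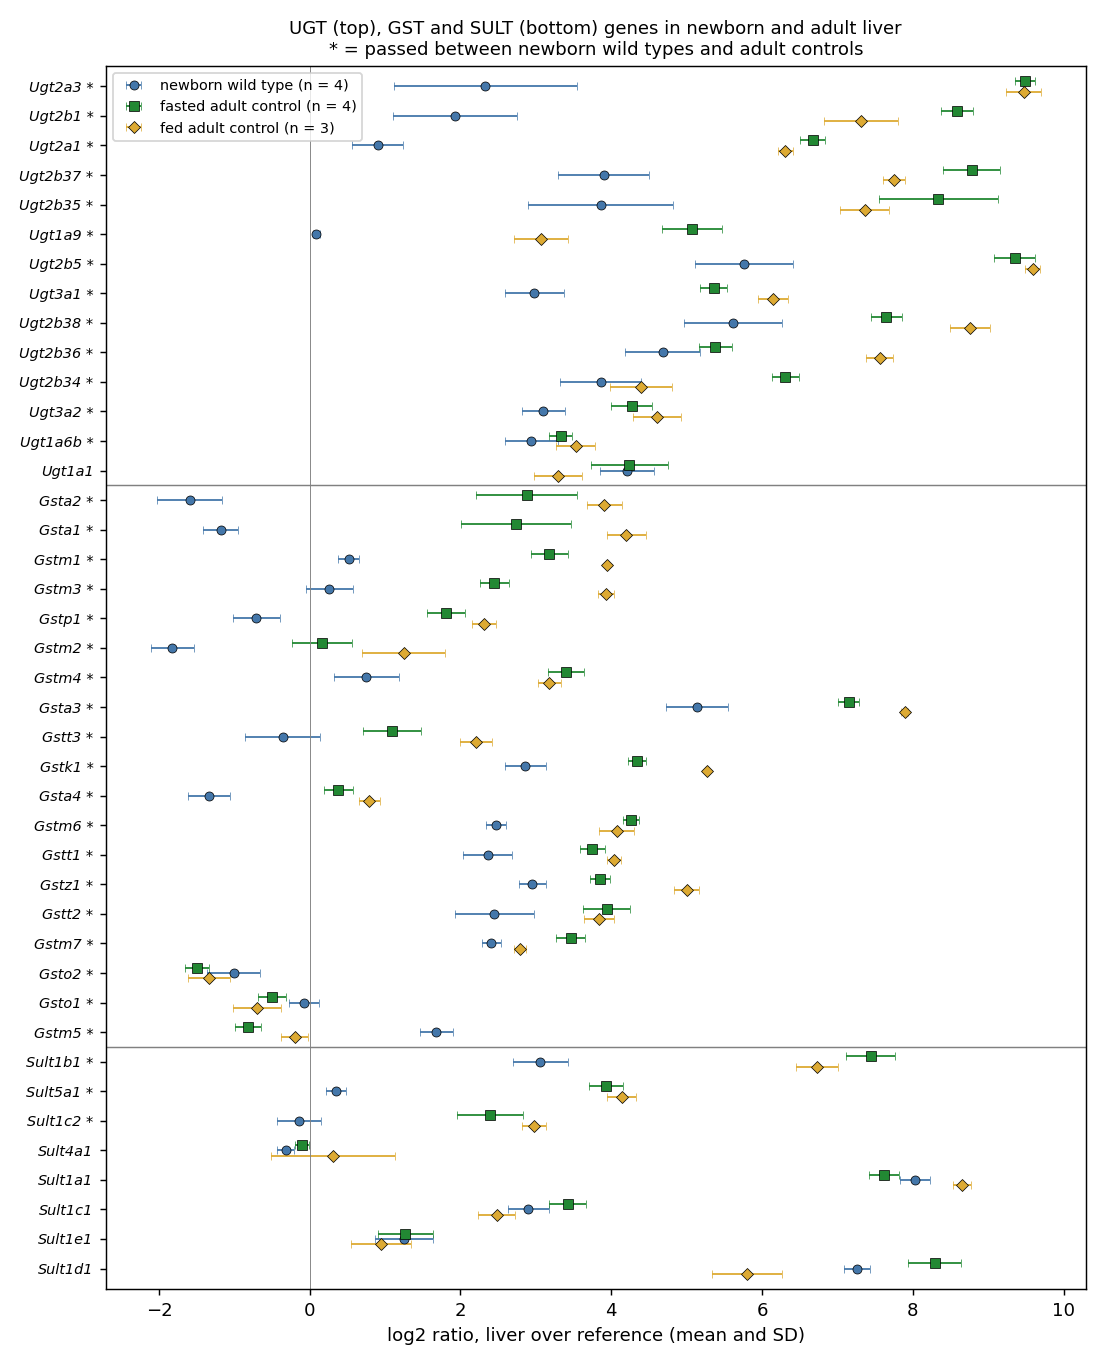
Mean log2 ratio of liver over reference (x axis) with its SD for each of the 41 genes (y axis) in newborn wild types, fasted adult controls and fed adult controls, grouped by family. Most UGT and GST genes have their newborn value to the left of both adult values, while Gstm5, Gsto1 and Gsto2 have it to the right. Sult1a1, Sult1c1, Sult1d1 and Sult1e1 have it between the fasted and the fed value.

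In adult knockouts Gstm2 was the member that passed, and it fell in both feeding states. Gstm2 encodes a mu-class glutathione transferase. Its probe lies on chromosome 3 at 107784622 to 107784681 of build mm9 on the minus strand, among 6 other Gstm genes within 143 kb. The probe is shown beside that of its neighbour Gstm1 because the mu genes are close paralogs that a probe could confuse. Capitals mark the bases that match when the 2 probes of 60 bases are laid side by side without gaps.
Gstm2: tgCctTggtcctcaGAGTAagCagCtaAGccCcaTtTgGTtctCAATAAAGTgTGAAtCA
Gstm1: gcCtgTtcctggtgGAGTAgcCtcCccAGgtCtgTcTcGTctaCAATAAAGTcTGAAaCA
They match at 31 of 60 bases, the highest count among all pairs of probes compared within the Gsta, Gstm, Ugt2b and Sult1 groups. Short overlaps were left out of that count, and there the end of the Gsta1 probe nearly repeats the start of the Gsta2 probe. Those genes may thus not be read separately. A match between probes cannot show whether a probe also reads a paralog's transcript at another site, which was not tested.

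Fasted controls had Gstm2 ratios of 0.1, 0.64, 0.22 and -0.32, and fasted knockouts -0.97, -1.66, -1.59 and -1.2. In fed mice it read 1.29, 0.68 and 1.77 in controls and -0.86, -1.08 and -0.71 in knockouts. Every adult knockout lay below every adult control, fasted or fed. The change was -1.52 ± 0.25 (SE) in fasted livers (adjusted p = 0.0114), 2.86-fold, and -2.13 ± 0.28 in fed livers (adjusted p = 0.00459), 4.38-fold. The interaction, fasted change minus fed change, was 0.61 ± 0.38 (adjusted p = 0.796), so a difference between the feeding states was not shown. Over all genes tested 0.467% passed in fasted and 0.222% in fed livers, against 1 of 41 members in each. The group means of the 2 comparisons share no array. Their p-values are not independent, because all adult arrays were fitted together and gave each gene a shared estimate of spread. By the stricter count over 4 measures, Gstm2 was again the 1 member in each, beside 0.198% and 0.128% of all genes. Among genes that fell, 62 fasted and 33 fed, 23 were shared, with Gstm2 among them.

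Within each slide the fall of Gstm2 was of like size. It was -1.69 within slide 3, -1.35 within slide 4, -2.27 within slide 5 and -1.93 within slide 6. The reference channel read -0.08 (adjusted p = 0.685) and 0.05 (adjusted p = 1) in the same 2 comparisons, and the liver channel alone gave -1.7 (adjusted p = 0.00428) and -1.97 (adjusted p = 0.00564). In fed livers all 25 alternatives kept the call, with adjusted p from 0.00195 to 0.0322. In fasted livers 25 of 28 did, with adjusted p from 0.00428 to 0.503. The 3 that did not were the fits within slide 3 (adjusted p = 0.13), within slide 4 (0.503) and without fasted knockouts 1 and 2 (-1.56, adjusted p = 0.0906), all with fewer arrays. In newborns Gstm2 read -1.56, -2.24, -1.74 and -1.75 in wild types and -1.94, -2.26, -2.07 and -1.47 in knockouts. These overlapped, from -2.26 to -1.47, while adult knockouts ran from -1.66 to -0.71.

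The other 6 Gstm genes did not pass in either adult comparison, and their 95% intervals bound what was missed. Gstm1 changed by 0.17 (-0.39 to 0.72) fasted and -0.48 (-1.12 to 0.16) fed, so a fed fall as large as that of Gstm2 lies outside its interval. Gstm3 changed by 0.18 (-0.16 to 0.51) and -0.36 (-0.75 to 0.03), Gstm4 by -0.12 (-0.43 to 0.19) and -0.28 (-0.64 to 0.07) and Gstm5 by -0.1 (-0.35 to 0.15) and 0.13 (-0.14 to 0.39). Gstm6 and Gstm7 changed by -0.25 and -0.29 fasted and by -0.07 and 0.44 fed. Gstm7 had 1 low array, fasted knockout 1 at 2.21, where the other fasted knockouts read 3.41 to 3.67.

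**Figure D2:**
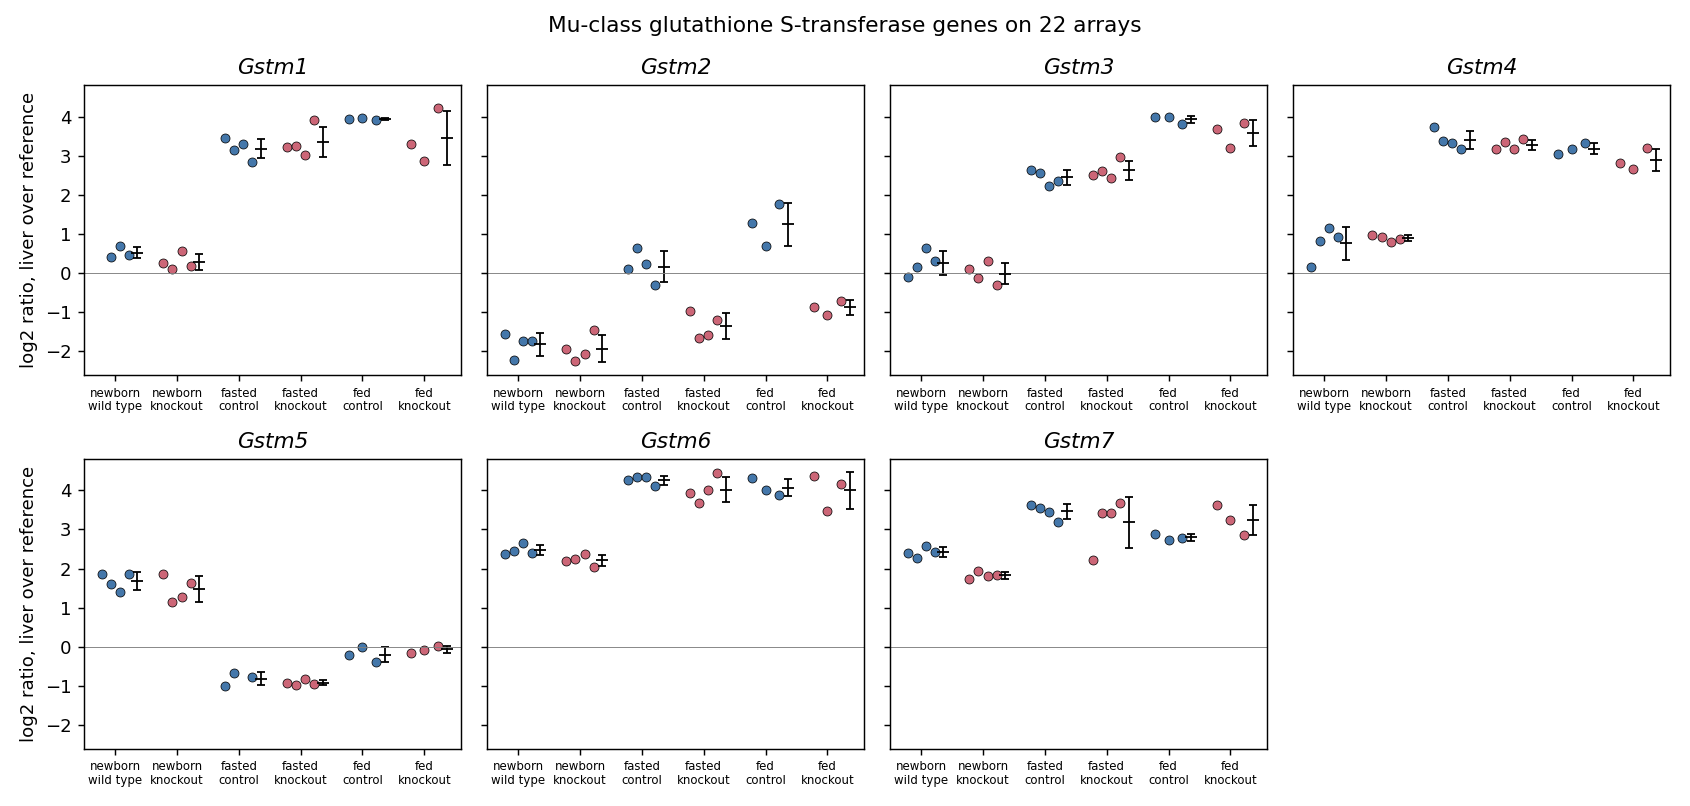
Log2 ratio of liver over reference (y axis) on every array for the 7 Gstm genes, 1 panel each, by group (x axis), with the mean and SD of each group beside its points. Gstm2 is lower in adult knockouts than in adult controls with no overlap, while the other 6 genes show overlapping or close adult groups, and Gstm5 alone is higher in newborns than in adults.

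Among the alpha GST genes a shift in fasted knockouts stayed short of the threshold. Gsta1, given above for controls, read 4.35, 4.13, 2.75 and 3.95 in fasted knockouts, a change of 1.06 ± 0.36 (adjusted p = 0.274) with overlapping groups, 0.94 within slide 3 and 1.18 within slide 4. Gsta2 changed by 0.8 ± 0.31 (adjusted p = 0.341). In fed livers they changed by -0.09 and -0.08. Gsta3 changed by -0.24 fasted and -0.35 fed. Gstt1 was lower in knockouts by 0.32 fasted and 0.3 fed, with adjusted p of 0.274 and 0.627. Gstt3, Gstp1 and Gstz1 changed by 0.45, 0.16 and -0.03 fasted and by -0.21, 0.15 and 0.09 fed, none past the threshold.

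No UGT gene passed in adult knockouts. In fasted livers Ugt2b1 read 8.39, 8.61, 8.5 and 8.88 in controls and 7.31, 7.66, 8.32 and 8.2 in knockouts. The groups did not overlap, though the lowest control (8.39) and the highest knockout (8.32) lay close. The change of -0.72 ± 0.24 did not pass (adjusted p = 0.264). Ugt2b34 had 1 low array, fasted knockout 1 at 4.33 against 5.96 to 6.21 in the other knockouts, and so did Ugt1a9, at 2.62 against 4.97 to 5.26. Their changes were -0.64 (adjusted p = 0.526) and -0.56 (adjusted p = 0.737). In fed livers Ugt2a3 changed by 0.49 ± 0.14 (adjusted p = 0.343), Ugt2b5 by 0.4 ± 0.17 (adjusted p = 0.626) and Ugt2b36 by 0.28 ± 0.14 (adjusted p = 0.772), all with separate ranges. Ugt2b34 changed by 0.47 and the probe named Ugt1a6b by -0.41, both with overlap. Groups that do not overlap were seen for 6.49% of all genes in fasted and 11.2% in fed livers.

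**Figure D3:**
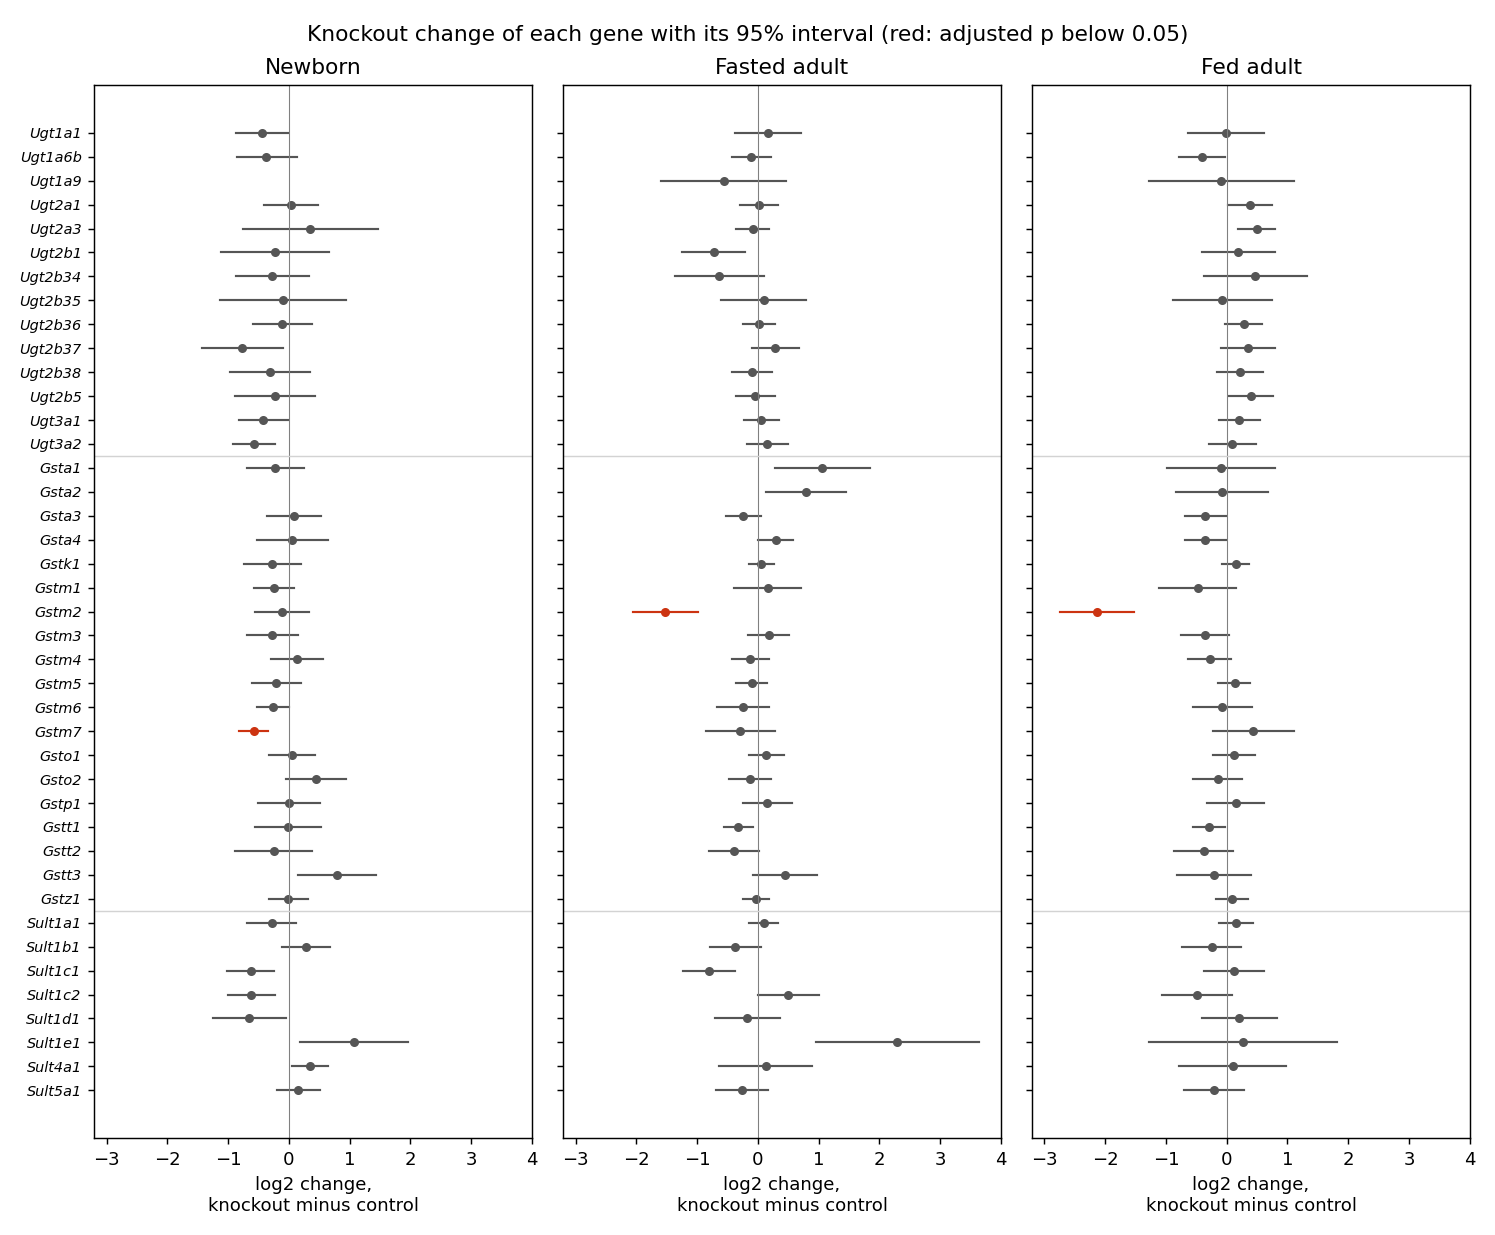
Log2 change, knockout minus control (x axis), with its 95% interval for each gene (y axis) in newborn, fasted and fed livers. Gstm2 in both adult panels and Gstm7 in the newborn panel passed (red), and the interval of Sult1e1 in fasted livers is wide.

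Sult1e1, the oestrogen sulphotransferase, had the largest change of any member in fasted knockouts, and it did not pass. Fasted controls read 1.29, 1.73, 0.85 and 1.21, and fasted knockouts 5.39, 4.65, 2.58 and 1.66. The change was 2.3 ± 0.62 (adjusted p = 0.157), with knockouts 1 and 2 far above and knockout 4 inside the control range. Those 2 knockouts shared slide 3, where the change was 3.51, and within slide 4 it was 1.09. It passed in 4 of 28 alternatives, among them slide as a fixed block (2.3, adjusted p = 0.0444) and without fasted knockout 4 (2.94, adjusted p = 0.0198). In fed livers Sult1e1 was above background on no array. In newborns it read 1.73, 0.78, 1.22 and 1.25 in wild types and 2.29, 1.12, 2.6 and 3.26 in knockouts, a change of 1.07 ± 0.4 (adjusted p = 0.266) with overlap.

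Fasted knockouts 1 and 2 also stood apart outside the families. Among known NRF2 targets, Srxn1, which encodes sulphiredoxin, read 3.16 and 3.27 in them, -0.1 and -0.21 in knockouts 3 and 4 and -0.31 to 0.53 in fasted controls. Nqo1, another NRF2 target, read -1.79, -1.67, -1.92 and -2.09 in fasted knockouts 1 to 4 and did not show that split. Hmox1, also a target, read 0.2, 0.8, -0.49 and -0.91 in them and -1.45 to -0.84 in fasted controls. The targets Gclc (3.38, 3.54, 2.83 and 3.48 in fasted knockouts 1 to 4) and Gclm (2.29, 2.7, 2.61 and 2.61) did not show that split. Txnrd1 read 0.01, 0.18, -0.12 and -0.28 in these knockouts and -0.31 to -0.05 in fasted controls. The CAR target genes Cyp2b10, Cyp2b9 and Cyp2b13 did not follow that split. Cyp2b10 read 4.14, 3.66, 3.12 and 4.81 in fasted knockouts against 0.19, 0.19, -0.1 and 0.56 in fasted controls. All 4 knockouts were high, and the change of 3.72 ± 0.47 passed (adjusted p = 0.00166), as did 4.18 for Cyp2b9 and 3.58 for Cyp2b13. The Cyp2b10 probe was well above background on 1 of 4 fasted and 0 of 3 fed controls, so the size of its change is set in part by background. In fed knockouts it read 3.06, 3.48 and 0.91 and did not pass (adjusted p = 0.312). Some markers of other cells moved with these arrays. The cholangiocyte marker Sox9 read 2.29 and 1.52 in knockouts 1 and 2, -0.01 and -0.1 in knockouts 3 and 4 and -0.92 to -0.77 in controls, and Spp1 and Epcam were highest in knockouts 1 and 2 too, while Krt19 was not. The summed ratio of all 5 cholangiocyte markers was 0.5 to 2.48 in fasted knockouts and -0.05 to 0.29 in fasted controls. Such a sum adds unlogged ratios, so the marker with the highest ratio, here Sox9, weighs most in it. Of 5 neutrophil markers, S100a8 read 1.17 and 2.15 in knockouts 1 and 2 against 0.11 and -1.02 in the others. S100a9 read 5.36, 6.57, 5.19 and 3.15 in knockouts 1 to 4 and 3.44 to 5.2 in fasted controls. Elane and Ngp read -0.1 to 0.25 in all 4 knockouts. Mpo read 0.74 in knockout 1 and 0.1 in knockout 2, so the neutrophil markers as a set did not show the split. The pancreas genes Cpb1 and Pnlip were high in knockouts 2 and 3 (7.99 and 7.54, 6.56 and 6.49) and between -0.26 and 0.27 on the other fasted arrays. Gstm2 read -1.66 and -1.59 in knockouts 2 and 3 and -0.97 and -1.2 in knockouts 1 and 4. The part of other cells in the values of fasted knockouts was not tested.

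Among the other sulphotransferases, Sult1c1 was at 3.45, 3.69, 3.45 and 3.09 when controls were fasted and at 2.83, 2.33, 2.64 and 2.68 for their knockout counterparts. The groups did not overlap, yet the change of -0.8 ± 0.2 did not pass (adjusted p = 0.122), and in fed livers it was 0.12. Sult1c2 changed by 0.5 fasted and -0.49 fed, Sult1b1 by -0.37 and -0.25, Sult1a1 by 0.1 and 0.15, Sult1d1 by -0.17 and 0.2 and Sult5a1 by -0.26 and -0.21. An unadjusted p below 0.05 was seen for 9 of 41 members in fasted and 8 in fed livers, beside 1917 and 1227 of all 17140 genes. The 95% interval lay within a log2 change of 1 in either direction for 32 of 41 members fasted and 34 fed. No member passed the interaction of genotype and feeding, where 0% of all genes passed in limma and 6 of 41 members had an unadjusted p below 0.05, beside 1133 of 17140 genes.

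**Figure D4:**
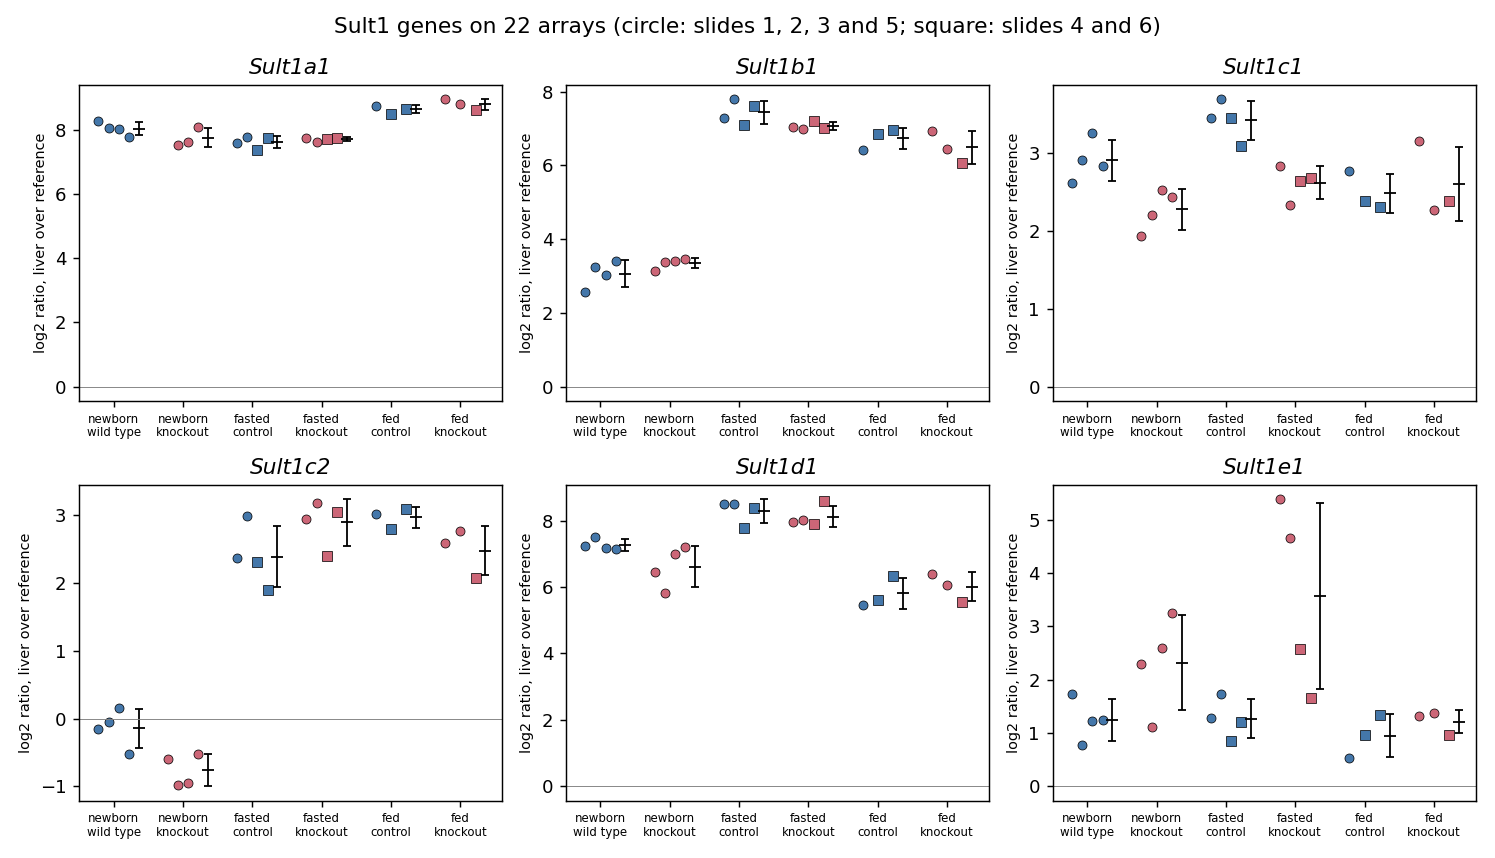
Log2 ratio of liver over reference (y axis) on every array for 6 Sult1 genes, 1 panel each, by group (x axis), with the mean and SD of each group and squares for arrays on slides 4 and 6. Sult1e1 reaches 5.39 and 4.65 in the 2 fasted knockouts of slide 3, and Sult1d1 is lower on fed than on fasted arrays in both genotypes.

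In newborn knockouts 1 of 39 tested members passed, against 1.35% of all genes, and 0 passed by the stricter count over 4 measures, against 0.204% (limma, with 12 of 39 members and 2267 of 17125 genes at an unadjusted p below 0.05). Gstm7, a mu-class gene, read 2.39, 2.26, 2.57 and 2.43 in wild types and 1.73, 1.94, 1.82 and 1.83 in knockouts. The groups did not overlap and the change was -0.58 ± 0.11 (adjusted p = 0.0383). The reference channel itself differed between the slides by 0.75 (adjusted p = 0.0053). The liver channel alone gave 0.2 (adjusted p = 0.488), the opposite sign, and the other Gstm7 probe averaged 1.79 ± 0.21 in wild types and 1.64 ± 0.24 in knockouts (SD, n = 4 each). The call was also lost in 11 of 19 alternatives, with adjusted p from 0.00984 upward. Leaving out any 1 newborn array other than wild type 1 left 0 members called. Groups that do not overlap were seen for 9.39% of all genes.

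The remaining newborn changes lay short of the threshold. Ugt3a2, whose family uses sugars other than glucuronic acid, read 2.91, 3.05, 3.52 and 2.91 in wild types and 2.7, 2.35, 2.53 and 2.53 in knockouts (-0.57 ± 0.16, adjusted p = 0.116). Sult1c1 changed by -0.63 and Sult1c2 by -0.62, with adjusted p of 0.116 and 0.121. Gstt3 read -0.15, -1.11, -0.02 and -0.16 in wild types and 0.9, 0.05, 0.04 and 0.75 in knockouts, a change of 0.8 ± 0.28 (adjusted p = 0.24). Ugt2b37 changed by -0.77 ± 0.3 (adjusted p = 0.29), and all 7 Ugt2b genes had a value below 0, and newborn wild type 1 was the lowest of its group for all 7. The median change was -0.22 over the 39 members and -0.01 over all genes. All 6 Kupffer cell markers also read lower in newborn knockouts (median -0.69), and 1 of them, Marco, passed, while all 5 sinusoidal endothelium markers read lower too (median -0.69) with none past the threshold. Sex markers differed among pups: Xist read -0.34 and 0.95 in newborn wild types 1 and 4 and -0.15 in knockout 4, against -5.12 to -2.7 in the other 5, and the Y-linked Ddx3y read -3.09 in wild type 4. The parts of these in the newborn values were not tested.

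Between fasted and fed controls 24 of 41 members passed, 9 higher and 15 lower in fasting, against 36.8% of all genes (20.2% higher, 16.6% lower). Between fasted and fed knockouts 18 passed, 7 higher and 11 lower, against 35.7% (18.7% and 17%). These splits moved with the scaling: with median centring they were 14 higher and 5 lower in controls and 15 and 4 in knockouts. The reference channel itself differed between fasted and fed arrays for 15 of the 24 and for 15 of the 18. Counted only where the ratio, the processed ratio, median centring and the liver channel all passed the same way, 3 of 41 members changed in controls and 1 in knockouts, beside 5.82% and 5.25% of all genes. Feeding and slide cannot be told apart. All 5 hepatocyte markers were lower in fasted than in fed mice of either genotype (median -1.23 and -1.22), and the part of this in the members' values was not tested.

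Sult1d1, a sulphotransferase of catecholamines and related amines, was the gene that rose with fasting in both genotypes by all 4 measures. It read 8.51, 8.51, 7.77 and 8.38 in fasted and 5.47, 5.61 and 6.33 in fed controls, and 7.96, 8.02, 7.9 and 8.59 in fasted and 6.4, 6.07 and 5.54 in fed knockouts. Fasted and fed arrays did not overlap in either genotype, as for 43.6% of all genes in controls and 42.5% in knockouts. The ratio rose by 2.49 ± 0.27 in controls (adjusted p = 3.32e-05) and 2.12 ± 0.27 in knockouts (adjusted p = 0.000107). The liver channel alone rose less, by 0.63 (adjusted p = 0.028) and 1 (adjusted p = 0.00331). With outlying local backgrounds kept, the change in controls was -0.35 (adjusted p = 0.823).

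The other members that changed in controls by all 4 measures were Ugt2b34 and Gstm3. Ugt2b34 read 6.21, 6.12, 6.42 and 6.5 fasted and 3.96, 4.78 and 4.46 fed, a rise of 1.91 ± 0.37 (adjusted p = 0.00162). In knockouts its change was 0.8 ± 0.37 (adjusted p = 0.107), and the interaction did not pass (adjusted p = 0.761). Gstm3 read 2.64, 2.56, 2.22 and 2.36 fasted and 3.99, 3.98 and 3.82 fed, a fall of 1.48 on the log2 scale (adjusted p = 5.14e-05). In knockouts the ratio of Gstm3 fell by 0.95 (adjusted p = 0.00102), while median centring gave 0.2 and the liver channel 0.18.

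In the ratio, GST genes fell or did not pass with fasting. In controls 11 of 19 fell and none rose, against 16.6% and 20.2% of all genes. In knockouts 5 of 19 fell and none rose, against 17% and 18.7%. By all 4 measures Gstm3 was the only GST gene to change in controls, and none did in knockouts. Gsta1 fell by 1.47 (adjusted p = 0.0106) in controls and changed by -0.31 (adjusted p = 0.558) in knockouts. Gsta3, Gstk1 and Gstm5 fell in both genotypes in the ratio and in the liver channel alone, but not with median centring. Gstm2 fell by 1.08 in controls (adjusted p = 0.00675). Gstm1 and Gsta2 fell by 0.76 and 1.04 in controls and changed by -0.11 and -0.16 in knockouts.

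UGT and SULT genes moved both ways. In controls 6 UGT genes rose and 3 fell, and in knockouts 4 rose and 5 fell. The largest fall of all was that of Ugt2b36, which read 5.15, 5.28, 5.45 and 5.65 in fasted and 7.68, 7.65 and 7.36 in fed controls (-2.18 ± 0.13, adjusted p = 1.3e-06). Its liver channel alone rose by 0.49 (adjusted p = 0.0175), and its reference channel was higher on fasted arrays by 1.92. In knockouts the 3 values were -2.43, 0.69 and 2.4. Ugt2b38, Ugt3a1 and Gstz1 had the same pattern in controls, with ratio changes of -1.11, -0.78 and -1.15, liver channel changes of 0.39, 0.18 and 0.16 and reference channel changes of 1.1, 0.45 and 0.7. Sult1a1 fell by 1.03 in controls and 1.08 in knockouts in the ratio, with liver channel changes of -0.37 and 0.16. Sult1c1 rose by 0.94 in controls, where its liver channel alone fell by 1 on the log2 scale.

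Ugt1a9 rose by 2 ± 0.52 in controls (adjusted p = 0.00917) and 1.52 ± 0.52 in knockouts (adjusted p = 0.0355), and Ugt1a1 by 0.95 and 1.13. Their liver channel changes had the same sign and did not pass. Ugt2b1 rose by 1.29 in controls, Ugt2b37 by 1.03 and Sult1b1 by 0.7, the last with a liver channel change of -0.45. Ugt2b35 rose by 0.99, a call that was lost in 13 of 25 alternatives and turned in 1, with a liver channel change of 0.14. With the processed ratio Ugt2b1 changed by -0.13 and Sult1b1 by -0.22. In knockouts Sult1e1 was above background on all 4 fasted and on no fed array. Its ratio rose by 2.36 (adjusted p = 0.0155), with knockouts 1 and 2 the highest. Set against the dimmest liver signals above background on the fed arrays, it was at least 2.39-fold higher in fasting, a bound that this p does not test.

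**Figure D5:**
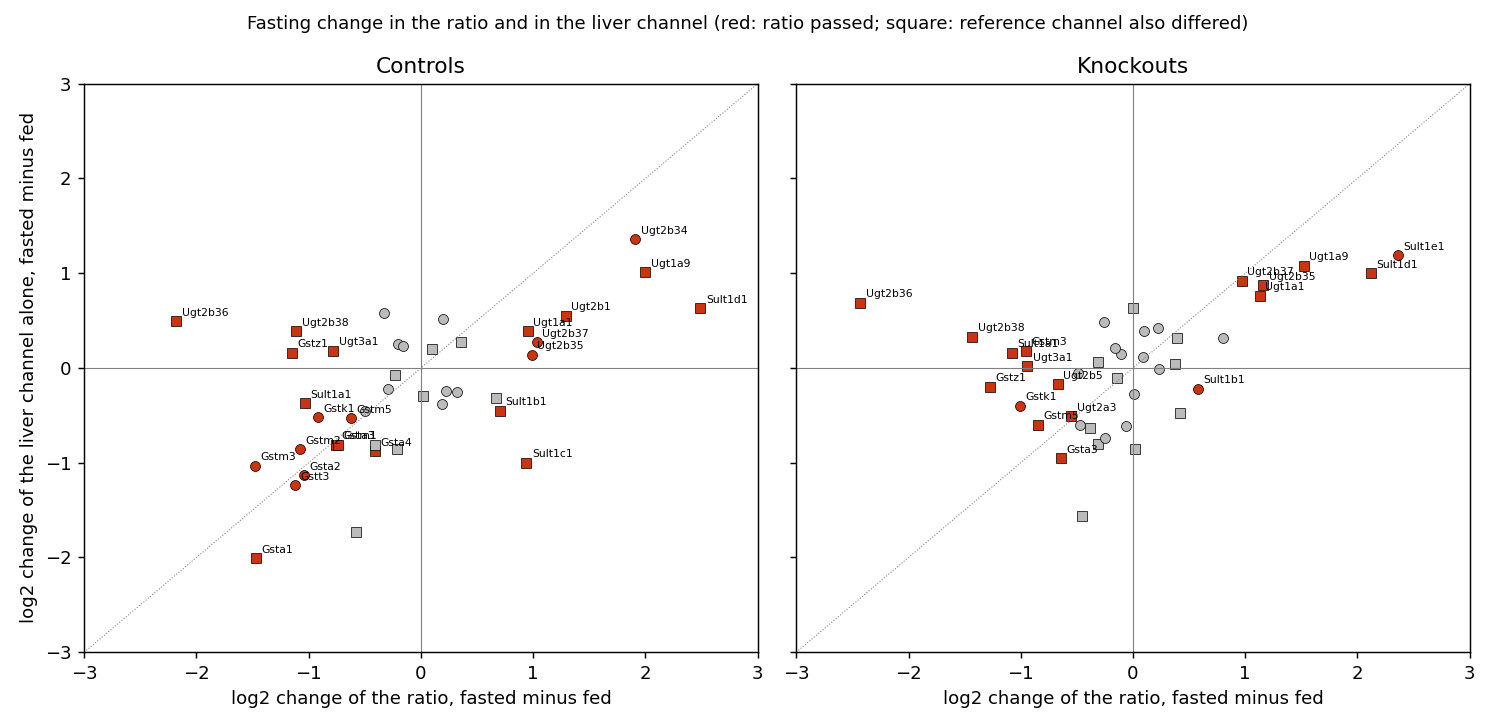
Log2 change from fed to fasted of the liver channel alone (y axis) against that of the ratio (x axis) for the members in controls and in knockouts. Red points passed in the ratio, squares had a reference channel that also differed, and Ugt2b36, at -2.18 and -2.43 in the ratio, lies above 0 in the liver channel.

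Many members are neighbours. On build mm9, 12 of the 41 lie within 686 kb of chromosome 5 (87319553 to 88005246), namely 7 Ugt2b genes, Ugt2a1, Ugt2a3, Sult1b1, Sult1d1 and Sult1e1. All 7 Gstm genes lie on chromosome 3, 3 Gsta genes on chromosome 9, 3 Gstt genes on chromosome 10 and 3 Ugt1a genes on chromosome 1. On chromosome 5, all 9 Ugt2 genes and Sult1b1 were lower in newborns, while Sult1d1 and Sult1e1 at the end of the cluster did not pass. On chromosome 3, Gstm2 fell in adult knockouts between Gstm3 and Gstm1, which did not pass.

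RefSeq promoter windows (250 bases before to 50 after a start, assembly GRCm38.p6) were at hand for 40 of the 45 genes, with 50 windows. The TCF/LEF core CTTTGAT, on either strand, was in 0 of these 50 and in 3.73% of all 32851 windows. The antioxidant response core TGACNNNGC was in 3 of 50 (Gsta3, Gstm5, Gstm7) and in 12.4% of all. TGGACTTTG, an HNF4-like repeat, was in that of Sult1b1 and in 0.475% of all, and the HNF1 palindrome in no member's and in 0.00913% of all. The 250 bases before the start of Gstm2, the member that changed in both knockout comparisons, are chr3:107986421-107986670 of GRCm38.p6, minus strand, given 5′ to 3′ with no capitals because none of these motifs is in them.
Gstm2 upstream: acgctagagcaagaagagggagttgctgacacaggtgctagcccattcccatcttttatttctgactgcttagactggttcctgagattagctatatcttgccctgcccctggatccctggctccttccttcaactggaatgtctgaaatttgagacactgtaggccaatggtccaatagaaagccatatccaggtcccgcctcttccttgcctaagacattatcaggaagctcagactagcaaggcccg
No match says only that these letters are not in this window.

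Genes that serve the same pathways were counted by the same test. Over all genes, 27.3% were lower and 32% higher in newborn wild types than in adult controls. With fasting 16.6% fell and 20.2% rose in controls, and 17% and 18.7% in knockouts. In newborn, fasted and fed knockouts 1.35%, 0.467% and 0.222% passed, so a short list with no call is near that share. Of 14 tested genes of cofactor supply, none passed in any knockout comparison, and 12 were lower and 1 higher in newborns. Ugdh, which makes UDP-glucuronic acid, was lower in newborns by 3.41, and Gclc, the catalytic subunit of the rate-limiting enzyme of glutathione synthesis, by 2.59. With fasting, Papss2, a PAPS synthase, rose by 1.06 in controls and 0.99 in knockouts, and 4 of 14 fell in controls and 5 in knockouts. Of 17 other conjugating and deconjugating enzymes, none passed in adult knockouts, while 12 were lower and 4 higher in newborns, among the latter the microsomal GST genes Mgst3, by 2.17, and Mgst2, whose probe was well above background on 0 of 3 fed controls. Of 12 transporters, none passed in adult knockouts. In newborn knockouts 1 of 10 fell, the uptake carrier gene Slco1b2, by 1.06 (adjusted p = 0.0385). Of the regulators, none of 17 tested in newborns and none of 16 in adults passed in a knockout comparison, and 12 of 17, among them Nr1i3 (CAR) by 1.58 and Nfe2l2 (NRF2) by 0.52, were lower in newborns. Of 13 CAR and NRF2 targets outside the families, 3 rose in fasted knockouts, the Cyp2b genes given above, and none passed in fed or newborn knockouts. Gclc, Gclm and Nqo1 are among these targets and also in the lists above.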

How the data were processed

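Each liver RNA (Cy3) was hybridised with Stratagene mouse reference RNA (Cy5) on a 2-colour Agilent array of design 014868, per the labels and file headers, with no dye swap. Per the file headers, the deposited array files hold spot intensity values from Feature Extraction 10.5.1.1, with gene positions on mm9, while the submitters' processing notes name version 8.5.1.1. The deposited log10 ratios equal those in the array files. They were not used for the tests.

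From the median intensity values, background was corrected with normexp (offset 50), with local backgrounds marked as outliers set to the array's median, and arrays were normalized by loess. Ratios were turned to log2 of liver over reference. Spots marked as outliers were set to missing, so Gstm1 and Gstz1 lack newborn wild type 1, Gstk1 and Gstm5 lack fasted control 3 and Sult1a1 lacks newborn knockout 1. The brightest probe of a gene was used. A gene entered a test when its liver signal cleared background on 4 or more newborn, or 3 or more adult, arrays.

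limma 3.58.1 in R 4.3.3 fitted the 8 newborn, 14 adult or all 22 arrays with 1 mean per group, two-sided, with Benjamini-Hochberg adjustment over all genes tested and a threshold of 0.05. The fits were tested on simulated data. Intervals are 95% intervals of the fit.

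Named in full were members past the threshold (the 6 largest each way where over 12 passed), the 2 of each family with the smallest p in each knockout comparison, a list of well-studied members, and the 5 largest age differences each way. Members, lists and motifs were chosen with earlier results of these data known. The alternatives of the closing section changed 1 choice at a time.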

Additional observations from a re-analysis of the deposited data

Results flagged for a closer look

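In 13 of 159 sets of 4 arrays (1 gene in 1 group), 1 array stood apart from the other 3 by Dixon's test. Chance flags about 1 in 20 sets. Newborn wild type 1 was low for Ugt2b34 (3.05, group median 4.1), Ugt2b36 (3.94, median 4.9), Ugt2b37 (3, median 4.17) and Ugt2b38 (4.64, median 5.92). Newborn wild type 2 was low for Gstt3 (-1.11, median -0.16). Fasted knockout 1 was low for Ugt1a9 (2.62, median 5.08) and Ugt2b34 (4.33, median 6.08). Fasted knockout 3 was low for Gsta2 (2.89, median 3.9) and high for Ugt2b36 (5.55, median 5.36). Fasted control 3 was low for Sult1d1 (7.77, median 8.44) and Ugt2b35 (7.16, median 8.69) and high for Sult4a1 (0.03, median -0.13). Fasted control 1 was low for Ugt2a3 (9.3, median 9.55). Fed groups, with 3 arrays, were not tested.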

How the results depend on the processing

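Of 1308 values of 50 named results under alternative settings, 1192 kept direction and side of the threshold. Members called in newborn knockouts numbered 1, but 0 with outlying local backgrounds kept, with median centring and without wild type 1 and knockouts 1 and 4 (chosen after seeing the data), 7 (1 higher, 6 lower) with the processed signals and 5 with array weights. In fasted knockouts 1 became 4 with backgrounds kept, 2 with slide as a fixed block, and 0 within slide 4 or without knockouts 1 and 2 (chosen after seeing the data). The fasting response of knockouts, 18, became 10 with backgrounds kept and 10 in the liver channel alone, and its split of 7 higher and 11 lower became 1 and 9 and 4 and 6. The split of controls, 9 and 15, became 0 and 17 and 5 and 11. Leaving out 1 array each gave 0 to 2 in newborn knockouts, 1 to 2 fasted, 1 to 1 fed, 18 to 26 for fasting in controls, 15 to 19 in knockouts, 0 to 0 for the interaction and 34 to 36 by age. Without newborn wild type 1 the newborn count was 2, and without any other newborn array it was 0. Without fasted knockout 4 or fed knockout 1 the fasted count was 2. Between mice of 1 replicate number, deviations from the group means correlated at 0.5, 0.34, 0.39 and -0.23 for newborn pairs 1 to 4. For adult pairs the correlations ran from -0.13 to 0.15. Whether replicate numbers pair the newborn mice is not known. With the replicate block the counts were 1, 1, 1, 19, 16, 0 and 34 in the same order, and the newborn one was another gene.

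Among the named results, 14 values turned the direction of a fasting change. Over all members called, the liver channel alone turned 6 in controls and 6 in knockouts. With backgrounds kept, controls gave -0.35 for Sult1d1, -0.98 for Ugt2b1, -0.99 for Ugt2b37 and -1.13 for Ugt2b35. With processed signals Ugt2b1 gave -0.13 in controls and Ugt2b35 -0.12 in knockouts, and with median centring Gstm3 gave 0.2 in knockouts. The liver channel alone gave 0.49, 0.16 and 0.39 for Ugt2b36, Gstz1 and Ugt2b38 in controls and 0.69, 0.33, 0.16 and 0.18 for Ugt2b36, Ugt2b38, Sult1a1 and Gstm3 in knockouts. It also turned Gstm7 in newborn knockouts, to 0.2. The cause was not tested. The median fasting change of all genes was 0.05 in controls and 0.04 in knockouts, 0.26 and 0.3 with median centring and 0.41 in both with processed signals. Low signals limit the fed groups most.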

Other observations

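Sult3a1, a sulphotransferase gene that was not kept, was above background on 3 wild-type and 2 knockout newborn arrays and on no adult array. It read 0.49, 1.81, 0.92 and 1.57 in newborn wild types and 0.33, 1.14, 1.25 and 0.22 in knockouts, against -0.24 to 0.24 on adult arrays.

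Probes of 1 gene differed in places. The other Ugt3a2 probe averaged 0.69 ± 0.24 in newborn wild types, 5.87 ± 0.19 in fasted and 3.49 ± 0.35 in fed controls (SD, n = 4, 4 and 3), where the brightest averaged 3.1, 4.27 and 4.61. The probes thus order fasted and fed controls differently. The other Gsta3 probe averaged 3.92 ± 0.15, 4.06 ± 0.2 and 5.06 ± 0.1 in these groups, where the brightest averaged 5.14, 7.15 and 7.89. Both Gstm1 probes had their lowest mean in newborns (0.52 and 0.64) and their highest in fed controls (3.94 and 4.47), and both Gstp1 probes did as well (-0.71 and -0.53, 2.31 and 2.86). A probe of Ugt2a1, averaging 0.08 in newborn wild types and 0.18 in fasted controls, was above background in no full group, where the brightest rose from 0.9 to 6.67.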
